A study of Mus musculus with 12 samples.

Results

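The 10 genes described here encode regulators of Polycomb silencing and of DNA methylation. They were chosen by name and measured in mouse T-lineage acute lymphoblastic leukemia (T-ALL, a malignancy of T-cell precursors). Ezh1, Ezh2, Eed, Suz12, Phf6, Kdm6a, Dnmt3a, Dnmt3b, Uhrf1 and Tet2 each matched 1 row of the 38339 in the deposited table of FPKM (fragments scaled to gene length and library size), so 10 of 10 were found. The libraries came from 6 primary leukemias, each transplanted into recipient mice whose background is given as C57BL/6 x 129Sv/Jae F1. When moribund, the recipients received dexamethasone (DEX, a synthetic glucocorticoid) or vehicle (VEH), and their bone marrow was taken 4 hours later. Each leukemia contributed 1 DEX and 1 VEH recipient, so there were 6 DEX and 6 VEH libraries, and the replicate is the leukemia (n = 6). In the labels leukemia 1 is 73A-46B, leukemia 2 is 73M-19A, leukemia 3 is 78A-143B, leukemia 4 is 2M-127B, leukemia 5 is 20M-116B and leukemia 6 is JW-81-59B. The labels give no driver mutation, no age and no sex, and the comparison addresses the response of these leukemias to the drug inside the animal.

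Polycomb repressive complex 2 (PRC2) places methyl groups on a lysine of histone H3 and so holds developmental genes silent. Its catalytic subunit is EZH2 or the related EZH1, and EED and SUZ12 are core subunits that the enzyme needs. KDM6A (UTX) removes the same mark, and PHF6 is a nuclear zinc finger protein that binds chromatin. DNMT3A and DNMT3B add methyl groups to unmethylated cytosines in DNA, UHRF1 brings DNMT1 to newly replicated DNA so that the pattern is copied, and TET2 oxidises methylcytosine on the way to its removal. In human T-ALL, PHF6, the PRC2 genes, KDM6A and DNMT3A are recurrently mutated, and loss of PRC2 or PHF6 is counted among the lesions of this disease.

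Estimated depth was 11800000 to 36300000 fragments in 11 libraries. For the VEH library of leukemia 2 the same method gave 97000000, which was not taken as settled and was left out. Between 11778 and 12970 genes reached 1 FPKM in a library. The T-lineage markers Cd3e, Cd3g, Cd3d, Lck, Thy1 and Cd2 together summed to 1185 to 1735 FPKM in DEX and 1268 to 1998 FPKM in VEH libraries. Marrow cells of other types were also present. Their markers summed to 1521 to 5320 FPKM in DEX and 2299 to 8914 FPKM in VEH libraries for 8 granulocyte genes, and to 13.9 to 103 FPKM in DEX and 28.4 to 117 FPKM in VEH libraries for 5 monocyte and macrophage genes. For 8 erythroid genes the sums were 16.5 to 151 FPKM in DEX and 9.99 to 1189 FPKM in VEH, and for 7 B-lineage genes 1.12 to 8.34 FPKM in DEX and 1.18 to 51.3 FPKM in VEH. The VEH library of leukemia 2 held the highest erythroid and B-lineage sums. The granulocyte sum exceeded the T-lineage sum in every library, and sums over different genes do not give shares of cells. In such bulk samples, fewer cells of a type and less RNA per cell cannot be told apart. Fkbp5, a classic glucocorticoid target, and Nr3c1, the gene of the glucocorticoid receptor, rose in DEX libraries by 1.06 and 0.69 on the log2(FPKM + 1) scale, with adjusted p-values of 0.00179 and 0.00163 in limma.

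After DEX, 2 of the 10 regulators fell, Dnmt3a and Phf6, and 0 rose (limma with leukemia as a block, Benjamini-Hochberg adjusted p under 0.05). Over all 12358 tested genes 9.28% fell and 4.27% rose, and 2 of 10 set against that background is no finding about the regulators as a group. Counted by calls, 31.5% of the genes past the threshold were higher with DEX, and this share was 44.7% under median-of-ratios scaling, 43.6% under quantile normalization and 12.1% after rescaling to TPM (FPKM brought to one fixed sum per library). At an unadjusted p under 0.05, 3 regulators were lower and 0 higher, beside 20.5% and 9.69% of all tested genes. The estimate was below 0 for 9 of 10 regulators, with a median of -0.17, and below 0 for 7450 of all tested genes, with a median of -0.05. Rescaling to TPM moved the median of all tested genes to -0.17 and turned Kdm6a below 0, so differences were also taken relative to that median. Under 5 scalings the median of the regulators then lay at -0.12 to -0.11, Dnmt3a at -0.31 to -0.29 and Phf6 at -0.24 to -0.23. The T-lineage markers moved as well: Cd3g, Lck and Cd2 fell among 6, with a list median of -0.23, and their part in the result was not tested. The DEX and VEH ranges overlapped for 10 of 10 regulators, and over all tested genes 1.73% had ranges that did not overlap. All differences below are of log2(FPKM + 1), DEX minus VEH, with the moderated SE and n = 6 leukemias.

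**Figure D1:**
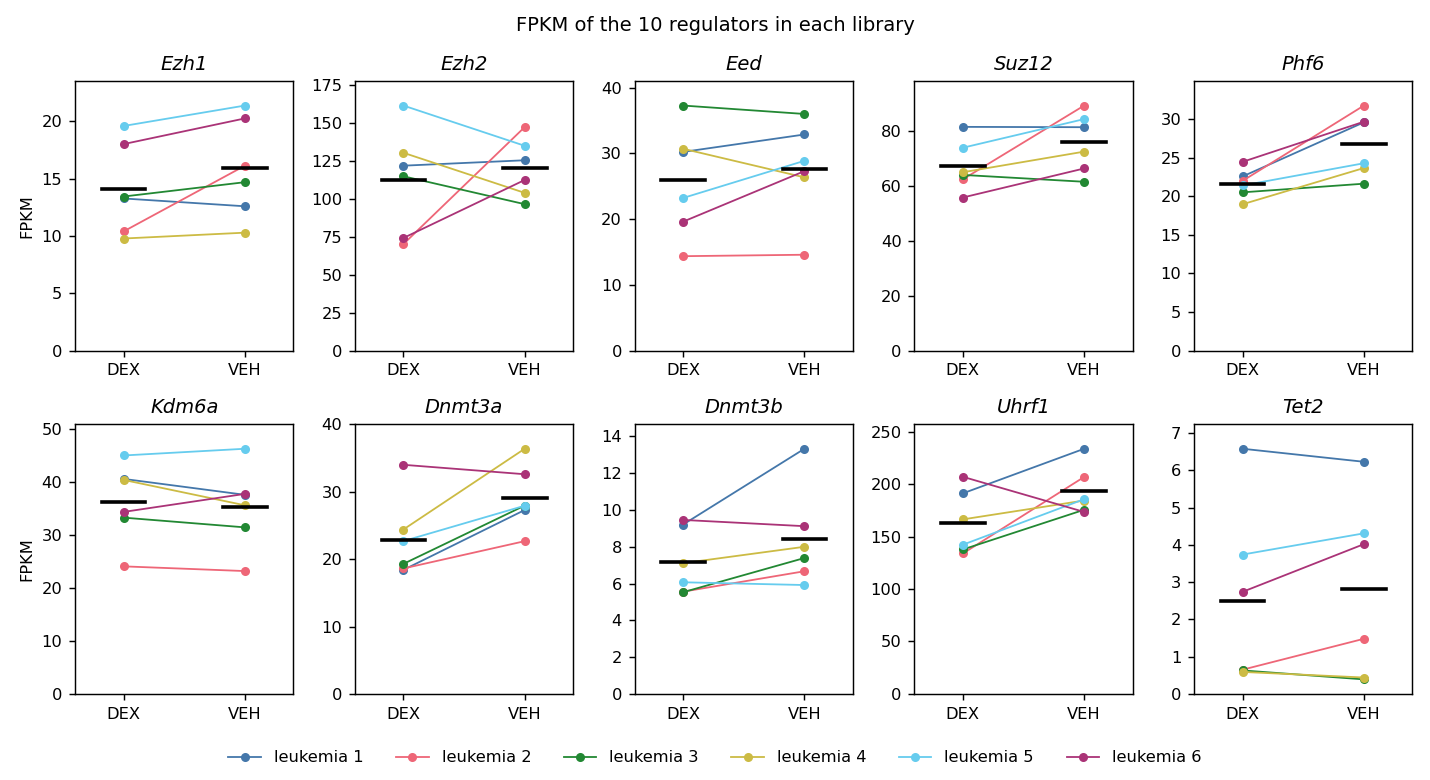
FPKM of each of the 10 regulators (vertical axis, starting at 0) in the DEX and VEH libraries of the 6 leukemias; lines join the libraries of a leukemia and black bars are group means. For Phf6 the VEH end of every line is higher, and for Tet2 leukemias 1, 5 and 6 lie apart from the other three.

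Dnmt3a (chr12:3806007-3914443, GRCm38), a de novo DNA methyltransferase, stood at 18.4, 18.6, 19.3, 24.4, 22.7 and 34.0 FPKM in the DEX libraries of leukemias 1 to 6. In the VEH libraries it stood at 27.3, 22.7, 27.9, 36.4, 27.9 and 32.6 FPKM. Its DEX library was the lower one in 5 of 6 leukemias, and in leukemia 6 both libraries were high and alike. The groups averaged 22.9 ± 5.95 FPKM in DEX and 29.1 ± 4.74 FPKM in VEH (SD, n = 6 each), and the difference was -0.35 ± 0.09 (95% confidence interval -0.56 to -0.15, limma adjusted p = 0.0353). Without leukemia 6 the difference was -0.43 (limma adjusted p = 0.0102). Without leukemia 1, 2, 3, 4 or 5 the limma adjusted p was 0.104, 0.0622, 0.0769, 0.101 or 0.0866, so the call needed each of those leukemias.

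Phf6 (chrX:52912266-52956943), which lies on the X chromosome, had 22.6, 22, 20.5, 18.97, 21.4 and 24.5 FPKM in the DEX libraries of leukemias 1 to 6, against 29.6, 31.8, 21.6, 23.7, 24.3 and 29.7 FPKM in the VEH libraries. It was lower with DEX in 6 of 6 leukemias, which held for 13.7% of all tested genes, with single differences of -0.07 (leukemia 3) to -0.51 (leukemia 2). The DEX libraries lay in a narrow band, 21.7 ± 1.87 FPKM, and the VEH libraries spread more widely, 26.8 ± 4.08 FPKM (SD, n = 6 each). The difference was -0.28 ± 0.07 (95% confidence interval -0.45 to -0.12, limma adjusted p = 0.0334). Without leukemia 3 the limma adjusted p was 0.0314, and without leukemia 1, 2, 4, 5 or 6 it was 0.0991, 0.0761, 0.0898, 0.0747 or 0.0550. Under median-of-ratios scaling the limma adjusted p was 0.0535 for Phf6 and 0.0875 for Dnmt3a, and with no replicate block it was 0.307 and 0.394.

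**Figure D2:**
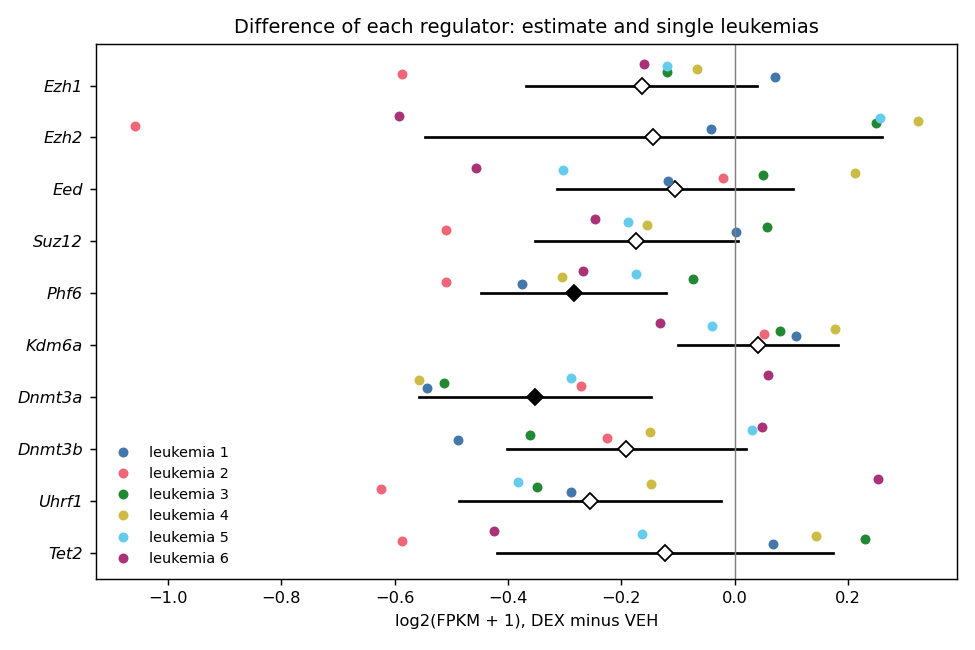
Difference of log2(FPKM + 1), DEX minus VEH, for each regulator: diamonds are limma estimates (filled where the adjusted p was under 0.05), lines 95% confidence intervals and colored points the 6 leukemias. Only the Dnmt3a and Phf6 diamonds are filled; the points of Ezh2 reach from -1.06 in leukemia 2 to 0.32 in leukemia 4.

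The core subunits of PRC2 did not pass the test. Ezh2 (chr6:47530139-47595341), the main catalytic subunit of dividing cells, had 122, 70.1, 115, 130.3, 161 and 74.2 FPKM in the DEX libraries of leukemias 1 to 6 and 125, 147, 96.4, 104, 135 and 112 FPKM in the VEH libraries. Its single differences went both ways. They were -1.06 and -0.59 in leukemias 2 and 6, -0.04 in leukemia 1, and 0.25, 0.32 and 0.26 in leukemias 3, 4 and 5. Each compares 1 DEX recipient with 1 VEH recipient, so mouse and treatment cannot be told apart within a leukemia. The difference over leukemias was -0.14 ± 0.18 (95% confidence interval -0.55 to 0.26, limma adjusted p = 0.62), and without leukemia 2 the estimate was 0.04. The SD of the 6 single differences was 0.56, above that of 93.4% of tested genes. The granulocyte markers were likewise lowest in leukemias 2 and 6: their mean difference was -0.70, -1.42, 0.51, 0.06, -0.44 and -1.46 in leukemias 1 to 6, with 8 of 8 estimates below 0 and 1 past the test, Ltf. The share of FPKM in small RNA genes also varied. It was 62.4, 71.0, 64.8, 65.0, 69.9 and 68.7% in the DEX libraries of leukemias 1 to 6. In the VEH libraries it was 61.7, 64.4, 65.8, 65.6, 65.1 and 63.6%. The part of neither in the result was tested.

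Suz12 (chr11:79993106-80034123), a core subunit that holds the complex together, had a lowest, median and highest value of 55.9, 64.6 and 81.7 FPKM in DEX and 61.6, 77.1 and 89.5 FPKM in VEH libraries. It was lower with DEX in 4 of 6 leukemias, most in leukemia 2 (-0.51), and the ranges overlapped. The difference was -0.17 ± 0.08 (limma adjusted p = 0.177). Eed (chr7:89954654-89980983), the subunit that binds the methyl mark, had a lowest, median and highest value of 14.4, 26.7 and 37.3 FPKM in DEX and 14.6, 28.1 and 36.0 FPKM in VEH libraries, with a difference of -0.11 ± 0.09 (limma adjusted p = 0.469). Leukemia 2 gave the lowest Eed in both groups and leukemia 3 the highest. Ezh1 (chr11:101191115-101226463), the other catalytic subunit, had a lowest, median and highest value of 9.78, 13.4 and 19.6 FPKM in DEX and 10.3, 15.4 and 21.4 FPKM in VEH libraries, with a difference of -0.16 ± 0.09 (limma adjusted p = 0.257). It was lower with DEX in 5 of 6 leukemias, and leukemias 5 and 6 held its highest values in both groups.

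The 2 catalytic subunits were far apart in level. FPKM of Ezh2 was 4.12 to 13.3 times that of Ezh1 in DEX libraries and 5.55 to 10.1 times in VEH libraries, so Ezh2 was the higher in 12 of 12 libraries. The log2 ratio of Ezh1 to Ezh2 within a library differed by -0.02 ± 0.17 (SE, n = 6) between DEX and VEH, higher in 3 leukemias and lower in 3 (exact sign-flip test, two-sided, p = 1.0). For Eed to Suz12 the ratio differed by 0.07 ± 0.12 (exact p = 0.5625). In all, 6 such ratios were compared, and 0.03125 is the smallest p that the 64 sign flips of 6 leukemias can give.

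Dnmt3b (chr2:153649450-153687730), the second de novo methyltransferase, stood well below Dnmt3a, at 9.21, 5.56, 5.53, 7.11, 6.07 and 9.46 FPKM in the DEX libraries of leukemias 1 to 6. In the VEH libraries it stood at 13.3, 6.67, 7.39, 8.0, 5.92 and 9.12 FPKM. In leukemias 1 to 4 the DEX library was lower, and in leukemias 5 and 6 it was slightly higher. The difference was -0.19 ± 0.09 (95% confidence interval -0.40 to 0.02, limma adjusted p = 0.205). Dnmt3a exceeded Dnmt3b by 2.00 to 3.73 times in DEX and 2.05 to 4.72 times in VEH libraries. The log2 ratio of Dnmt3b to Dnmt3a was higher with DEX in 5 of 6 leukemias, by 0.16 ± 0.07 (SE; exact p = 0.0625, adjusted over the 6 ratios 0.1875), which did not pass the threshold.

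Uhrf1 (chr17:56303321-56323486), the partner of DNMT1 in copying methylation, was the most abundant of the 10 in mean FPKM, at 191.3, 134, 138, 166, 142 and 207 FPKM in the DEX libraries of leukemias 1 to 6. In the VEH libraries it stood at 234, 207, 176, 184.4, 186 and 174 FPKM. Uhrf1 was lower with DEX in leukemias 1 to 5, with single differences of -0.15 to -0.62, and higher in leukemia 6, at 0.25. The difference was -0.26 ± 0.10 (95% confidence interval -0.49 to -0.02, limma adjusted p = 0.131), and without leukemia 6 it was -0.36 (limma adjusted p = 0.0241). Dnmt1 itself, the maintenance methyltransferase, averaged 107 ± 12.3 FPKM in DEX and 114 ± 15.5 FPKM in VEH libraries, with a difference of -0.09 ± 0.06 (limma adjusted p = 0.356). The log2 ratio of Uhrf1 to Dnmt1 was lower with DEX in 5 of 6 leukemias, by -0.16 ± 0.09 on average (SE; exact p = 0.15625, adjusted 0.3125).

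Promoter sequence is shown for the members of PRC2 and of methylation maintenance whose window holds a core word of E2F, the transcription factor family of the entry into DNA replication, because DNA replication genes were followed beside them. The windows cover 250 bases before to 50 after a gene start, 300 bases in all, from RefSeq on GRCm38.p6. In all, 9 of the 10 members matched, with 12 windows. Phf6 had no window, so its promoter was not searched. The words searched on both strands were the form TTGGCGC, the form TTCCCGC, the form TTGCCGC and the form TTCGCGC. They occurred in 4 windows of 3 members, Ezh2, Suz12 and Uhrf1, and in 9.57% of all 32851 windows. Each word contains the dinucleotide CpG, and every window of the members held more CpG than the median of all windows. The share over all windows is therefore not a like background. A match is only a match of letters. In each sequence, read 5′ to 3′ on the strand of the gene, capitals mark the word:
Ezh2 (chr6:47594981-47595280, minus strand): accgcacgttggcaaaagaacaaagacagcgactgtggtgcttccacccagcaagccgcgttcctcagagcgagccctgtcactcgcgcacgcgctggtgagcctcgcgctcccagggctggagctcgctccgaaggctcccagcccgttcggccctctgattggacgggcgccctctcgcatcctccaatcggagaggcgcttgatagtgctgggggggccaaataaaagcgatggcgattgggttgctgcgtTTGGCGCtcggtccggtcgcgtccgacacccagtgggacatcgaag
Suz12 (chr11:79992856-79993155, plus strand): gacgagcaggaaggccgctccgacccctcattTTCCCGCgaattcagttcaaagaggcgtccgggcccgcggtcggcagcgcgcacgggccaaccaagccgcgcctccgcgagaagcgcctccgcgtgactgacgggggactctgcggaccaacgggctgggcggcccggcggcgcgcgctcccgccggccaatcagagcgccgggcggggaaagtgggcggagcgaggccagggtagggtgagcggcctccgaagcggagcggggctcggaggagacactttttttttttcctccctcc
Uhrf1 (chr17:56303087-56303386, plus strand): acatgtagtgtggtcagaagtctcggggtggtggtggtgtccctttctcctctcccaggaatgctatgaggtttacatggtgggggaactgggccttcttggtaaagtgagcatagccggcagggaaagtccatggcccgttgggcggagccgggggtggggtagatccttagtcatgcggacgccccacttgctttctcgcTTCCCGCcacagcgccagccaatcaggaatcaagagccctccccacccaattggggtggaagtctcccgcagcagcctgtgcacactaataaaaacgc
Uhrf1 (chr17:56304063-56304362, plus strand): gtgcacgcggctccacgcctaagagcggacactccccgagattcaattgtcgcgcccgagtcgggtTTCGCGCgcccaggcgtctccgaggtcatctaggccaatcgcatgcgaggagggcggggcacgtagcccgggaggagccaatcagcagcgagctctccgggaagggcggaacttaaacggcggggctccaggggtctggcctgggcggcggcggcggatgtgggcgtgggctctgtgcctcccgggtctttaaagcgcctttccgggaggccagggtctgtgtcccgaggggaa

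No such word was found in the 3 Dnmt3a windows. The full glucocorticoid response element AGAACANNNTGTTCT, searched on both strands, occurred in 0 of the 12 windows of the members and in 3 of all 32851 windows, 0.00913%. An element this rare would hardly be met in 12 windows of any genes, so no conclusion is drawn from its absence. The windows of the members held 12 to 57 CpG dinucleotides, against a median of 7 and an upper quartile of 20 over all windows. Ezh2, Suz12 and Uhrf1, whose windows hold a word, had differences of -0.14, -0.17 and -0.26 with DEX, and 0 of these 3 passed the test.

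Kdm6a (chrX:18162575-18279936), the histone demethylase, had nearly equal levels in both groups. It stood at 40.6, 24.1, 33.3, 40.5, 45.1 and 34.4 FPKM in the DEX libraries of leukemias 1 to 6 and at 37.6, 23.2, 31.5, 35.7, 46.3 and 37.8 FPKM in the VEH libraries. The difference was 0.04 ± 0.06, with a 95% confidence interval of -0.10 to 0.18 (limma adjusted p = 0.694), and -0.09 after rescaling to TPM. Its 6 single differences had an SD of 0.11, at the 7.37 percentile of tested genes, so the libraries of a leukemia lay close together. Between leukemias Kdm6a did differ (limma F test on the leukemia terms, adjusted p = 0.00202), with leukemia 5 highest and leukemia 2 lowest and apart from its neighbours. Without leukemia 2 the F test still passed, with a limma adjusted p of 0.0443. Over all tested genes, 51.1% passed this F test.

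Leukemia 2 was also the leukemia in which the Y-linked paralog of Kdm6a was expressed. Uty, which encodes a protein closely related to KDM6A, had 23.3 FPKM in the DEX and 27.6 FPKM in the VEH library of leukemia 2, against 0.13 to 2.30 FPKM in the other DEX and 0.34 to 2.00 FPKM in the other VEH libraries. Ddx3y, another Y-linked gene, had 35.3 FPKM in the DEX and 26.8 FPKM in the VEH library of leukemia 2, and at most 1.96 FPKM in the other DEX and 2.07 FPKM in the other VEH libraries. Xist, the RNA of the inactive X chromosome, was near 0 in leukemia 2 (0.09 FPKM in DEX, 0.12 FPKM in VEH) and stood at 106 to 390.3 FPKM in the other DEX and 98.0 to 355 FPKM in the other VEH libraries. Of 9270 genes with a mean of at least 5 FPKM, Xist was the one whose log2(FPKM + 1) was most like that of Kdm6a over the 12 libraries (Pearson r = 0.92). Kdm6a escapes X inactivation. The sum of Kdm6a and Uty was 47.4 FPKM in the DEX and 50.8 FPKM in the VEH library of leukemia 2, the highest of each group, against 34.0 to 45.6 FPKM in the other DEX and 32.0 to 47.2 FPKM in the other VEH libraries. Reads from stretches that both genes share could be assigned to either, so the level of each gene alone is uncertain.

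**Figure D3:**
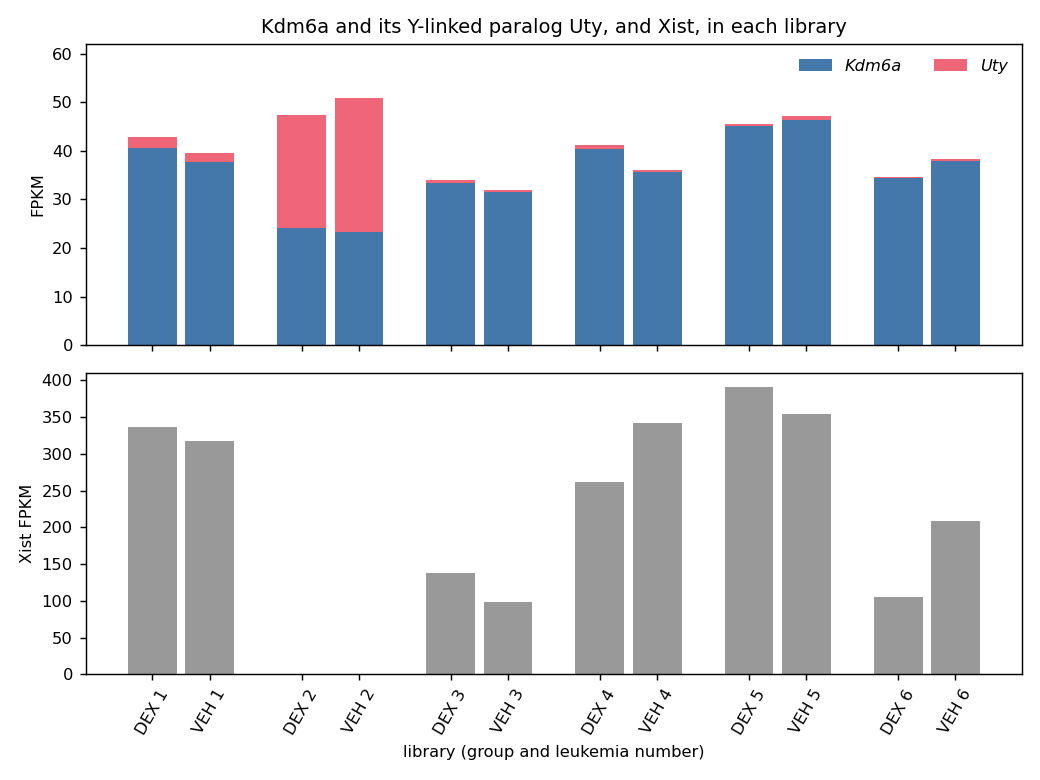
FPKM of Kdm6a and Uty, stacked (top), and of Xist (bottom), in each library, with the DEX library of a leukemia left of its VEH library. Uty is a large part of the bar in leukemia 2 alone, where Kdm6a is lowest and Xist is at 0.09 FPKM in DEX and 0.12 FPKM in VEH.

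Kdm6b (JMJD3), the other demethylase of this mark, did respond. It had 6.07, 4.15, 3.88, 4.35, 8.46 and 2.58 FPKM in the DEX libraries of leukemias 1 to 6 and 6.88, 9.73, 5.86, 9.41, 8.89 and 5.96 FPKM in the VEH libraries, lower with DEX in 6 of 6 leukemias. It fell by 0.62 ± 0.15 (limma adjusted p = 0.0299), and this call was lost without leukemia 2, 3, 4 or 6 (limma adjusted p up to 0.0866). The log2 ratio of Kdm6a to Kdm6b was higher with DEX in 6 of 6 leukemias, by 0.66 ± 0.19 (SE), at the smallest p this design allows (exact p = 0.03125), and at 0.1875 after adjustment over the 6 ratios.

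Tet2 (chr3:133463679-133545139), the dioxygenase, was the lowest of the 10 regulators and the one with the highest F between leukemias. It had 6.58, 0.65, 0.63, 0.59, 3.74 and 2.74 FPKM in the DEX libraries of leukemias 1 to 6 and 6.23, 1.48, 0.39, 0.44, 4.31 and 4.02 FPKM in the VEH libraries. Leukemia 1 was highest, leukemias 5 and 6 followed and overlapped each other, leukemia 2 came next, and leukemias 3 and 4 were lowest and overlapped. The highest library was 16.9 times the lowest, and the fewest fragments behind a value were an estimated 144, over the 11 libraries with a settled depth. The F test between leukemias gave an adjusted p of 0.000193 in limma, with an F above that of 95.2% of tested genes. With DEX the difference was -0.12 ± 0.13 (95% confidence interval -0.42 to 0.17, limma adjusted p = 0.56), lower in 3 leukemias and higher in 3.

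The other TET genes had patterns of their own. Tet1 had 12.4, 25.4, 14.2, 14.4, 8.72 and 0.01 FPKM in the DEX libraries of leukemias 1 to 6 and 13.1, 18.4, 11.98, 14.5, 8.41 and 0.11 FPKM in the VEH libraries. It was thus near 0 in both libraries of leukemia 6 and highest in leukemia 2 (F test between leukemias, limma adjusted p = 1.76e-06), with no call for DEX (limma adjusted p = 0.58). Tet3 averaged 9.05 ± 1.57 FPKM in DEX and 11.9 ± 2.09 FPKM in VEH libraries and was lower with DEX in 6 of 6 leukemias. Tet3 fell by 0.36 ± 0.08 (limma adjusted p = 0.0251), and the call was lost without leukemia 1, 2, 3, 4 or 5 (limma adjusted p up to 0.0797). The FPKM of the 3 genes summed to 10.4 to 36.0 in DEX and 13.4 to 35.3 in VEH libraries, lowest in leukemia 6 and highest in leukemia 2 in both groups. The log2 ratio of Tet2 to Tet3 differed by 0.24 ± 0.15 (SE; exact p = 0.25, adjusted 0.375).

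**Figure D4:**
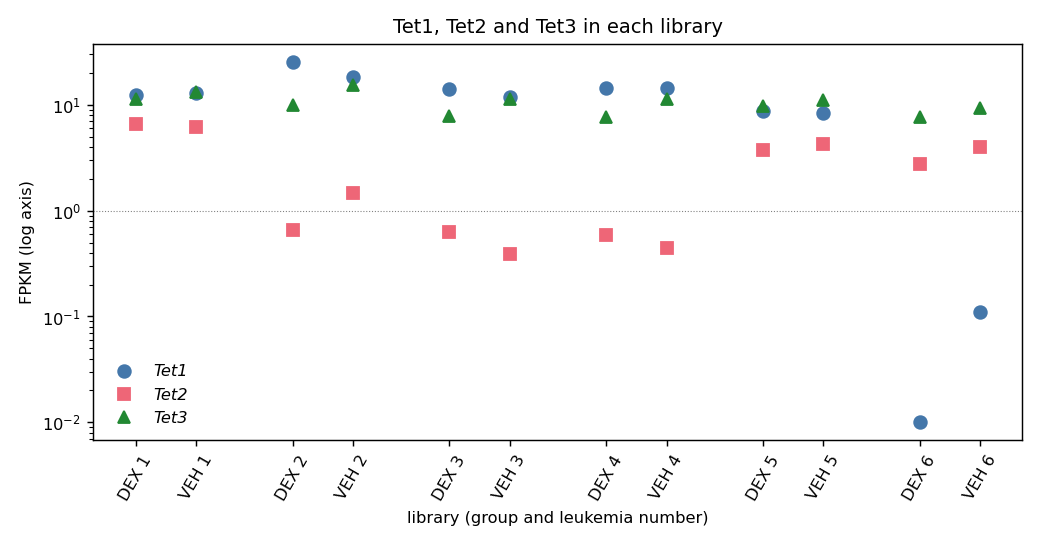
FPKM of Tet1, Tet2 and Tet3 (log axis) in each library, with the DEX library of a leukemia left of its VEH library and a dotted line at 1 FPKM. Tet3 lies at 7.60 to 11.4 FPKM in DEX and 9.29 to 15.4 FPKM in VEH, with the DEX library lower in each leukemia. Tet2 lies under 1 FPKM in both groups in leukemias 3 and 4, and Tet1 is at 0.01 FPKM in DEX and 0.11 FPKM in VEH in leukemia 6.

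Between leukemias, 6 of the 10 regulators differed (Ezh1, Eed, Kdm6a, Dnmt3a, Dnmt3b and Tet2), near the 51.1% of all tested genes. The limma adjusted p of the F test was 0.00241 for Eed, 0.00649 for Ezh1, 0.0133 for Dnmt3b and 0.0354 for Dnmt3a. Eed lost this call without leukemia 2 (limma adjusted p = 0.0567) and Dnmt3b without leukemia 1 (limma adjusted p = 0.0661). Dnmt3a lost it without leukemia 2, 4 or 6 (limma adjusted p = 0.0665, 0.0548 and 0.0533). Ezh2, Suz12, Phf6 and Uhrf1 gave limma adjusted p-values of 0.417, 0.101, 0.102 and 0.282. By the mean FPKM of a leukemia's libraries, leukemia 1 was highest in Tet2 and Dnmt3b, leukemia 3 in Eed, leukemia 5 in Ezh1 and Kdm6a, and leukemia 6 in Dnmt3a. That highest leukemia overlapped the next one in Dnmt3b, Ezh1 and Dnmt3a and lay apart from it in Tet2, Eed and Kdm6a. In Ezh2, Suz12, Phf6 and Uhrf1, which did not pass the F test, the range of the highest leukemia overlapped that of at least 1 other.

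The partners of PRC2 and PRC1 are subunits that guide or extend these complexes, and their counts stand beside the 9.28% of all tested genes that fell. Of 9 PRC2 partners tested 1 fell, Mtf2, a subunit that guides the complex to CpG-rich DNA, by 0.46 ± 0.12 (limma adjusted p = 0.0338), and 0 rose. Jarid2, another guiding subunit, had a difference of -0.14 ± 0.08 (limma adjusted p = 0.278). Of 21 genes of PRC1, the complex that places ubiquitin on histone H2A, 4 fell and 0 rose: Cbx2, Pcgf5, Pcgf6 and Kdm2b. Cbx2, a reader of the PRC2 mark, had 3.95, 2.50, 4.77, 6.65, 5.42 and 11.3 FPKM in the DEX libraries of leukemias 1 to 6 and 8.88, 5.86, 8.41, 11.9, 9.57 and 15.9 FPKM in the VEH libraries. It fell by 0.77 ± 0.09 (limma adjusted p = 0.00202), lower in 6 of 6 leukemias. Pcgf6, Pcgf5 and Kdm2b, parts of variant PRC1 complexes, also fell, with differences of -0.49, -0.42 and -0.41. Rnf2, a catalytic subunit, and Bmi1, its partner, had differences of -0.15 ± 0.08 and -0.17 ± 0.07 (limma adjusted p = 0.252 and 0.139). Under median-of-ratios scaling Mtf2 and Kdm2b were no longer past the threshold (limma adjusted p = 0.0520 and 0.0593), which left 0 of 9 PRC2 partners and 3 of 21 PRC1 genes. Over all tested genes, 789 of 12316 were lower under that scaling, against 1147 of 12358 without it. The medians were -0.13 for the PRC2 partners and -0.06 for PRC1, beside -0.05 for all tested genes. In the list of demethylation and deubiquitination of histones, 1 of 13 fell, Kdm6b, and 0 rose, with a median of -0.16.

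**Figure D5:**
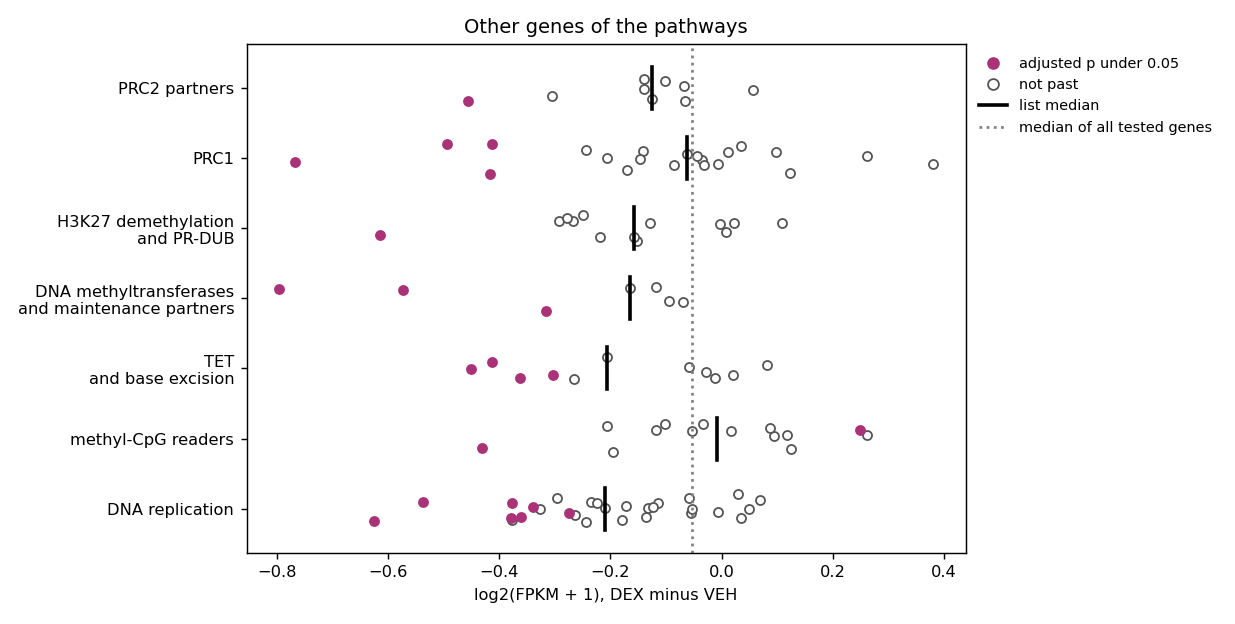
Difference of log2(FPKM + 1), DEX minus VEH, of each tested gene in 7 lists of the pathways; filled points passed the test, bars are list medians and the dotted line is the median of all tested genes, -0.05. Filled points lie below 0 in 7 of 7 lists, with Cdca7 (-0.80) and Cbx2 (-0.77) the lowest, and 1 filled point, Zbtb38, lies above 0.

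On the side of DNA methylation, 3 of 7 tested methyltransferases and maintenance partners fell and 0 rose, where 9.28% of all tested genes fell. Cdca7, which activates the remodeller HELLS, had 133.8, 91.2, 136, 93.1, 88.2 and 48.5 FPKM in the DEX libraries of leukemias 1 to 6, against 235, 162, 199, 153, 171 and 94.1 FPKM in the VEH libraries. It was lower with DEX in 6 of 6 leukemias and fell by 0.80 ± 0.07 (limma adjusted p = 0.0006). Hells, a chromatin remodeller needed for methylation of repeats, fell by 0.57 ± 0.13 (limma adjusted p = 0.0216), and Pcna, the replication clamp, by 0.32 ± 0.09 (limma adjusted p = 0.0456). Pcna was not past the threshold under median-of-ratios scaling (limma adjusted p = 0.0711), which left 2 of 7. That scaling also lowered the count over all tested genes, to 789 of 12316 from 1147 of 12358. Of 11 genes of TET action and base excision 4 fell and 0 rose. They were Apex1 and Lig3, which cut and seal DNA during repair, Idh2, which makes a cofactor of TET enzymes, and Tet3, with differences of -0.45, -0.30, -0.41 and -0.36 in that order. Of 14 readers of methylated DNA and their partners 1 fell, the deacetylase Hdac2 (-0.43), and 1 rose, Zbtb38, a zinc finger reader, by 0.25 (limma adjusted p = 0.0273), which was no longer past the threshold after rescaling to TPM. The medians were -0.16 for the methyltransferases and partners and -0.21 for TET action and base excision. The median of the readers was -0.01, and it was above 0 under median-of-ratios scaling (0.04) and quantile normalization (0.02).

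The lists of this and the preceding paragraphs were chosen with earlier results of these data known, so their counts are a description. DNA replication genes were followed because Uhrf1, Ezh2, Hells and Pcna are expressed with the cell cycle. Of 29 tested, 7 fell and 0 rose, beside 9.28% and 4.27% of all tested genes: Mcm2, Mcm3, Mcm4, Mcm6 and Mcm7 of the replicative helicase, and Cdc6 and Cdt1, which load it. Mcm4 averaged 46.5 ± 7.66 FPKM in DEX and 67.6 ± 7.92 FPKM in VEH libraries and fell by 0.54 ± 0.09 (limma adjusted p = 0.00794), and Cdc6 fell by 0.62 ± 0.13 (limma adjusted p = 0.0149). The list median was -0.21. Under median-of-ratios scaling 4 of the 29 were lower, with Mcm2, Mcm7 and Cdt1 no longer past the threshold (limma adjusted p = 0.0644, 0.109 and 0.0520), and after rescaling to TPM 12 were. The background moved too: 789 of all 12316 tested genes were lower under median-of-ratios scaling and 1889 of 11367 after rescaling to TPM. Without further scaling it was 1147 of 12358. In all, 22 genes of these 7 lists passed the test, and 3 of them, Cbx2, Cdca7 and Mcm4, passed also without any 1 leukemia. The other 19 lost the call without at least 1 leukemia, among them 16 without leukemia 1 and 18 without leukemia 5.

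Genes whose log2(FPKM + 1) most resembled that of a regulator over the 12 libraries, among 9270 genes, are given as a description, since libraries of a leukemia share their source. Dnmt3a was most like Cbx2 (Pearson r = 0.94), followed by Zfp444 and Pafah1b3 (r = 0.94 and 0.93). Ezh2 was most like Ric1 (r = 0.96), Suz12 most like Cstf3 (r = 0.97), Phf6 most like Clint1 (r = 0.91), and Eed most like Rnaseh2c (r = 0.91). Ezh1 was most like Slc5a9 (r = 0.92), Dnmt3b most like 2310022A10Rik (r = 0.88), Uhrf1 most like Bri3bp (r = 0.86), and Tet2 most like the long noncoding RNA Tug1 (r = 0.92). Dnmt3a and Cbx2 were lower with DEX in 5 of 6 and 6 of 6 leukemias, and both had their highest DEX value in leukemia 6.

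Levels were also taken for loci that are classic targets of these regulators. Of 15 developmental and cell cycle loci that Polycomb holds silent in other cells, 11 were under 1 FPKM in every library, among them Hoxa5, Hoxa7, Hoxa9, Hoxa10 and Meis1, and so were 60.7% of all 38339 rows of the table, so this count is not a result about these loci. Cdkn2a, a tumor suppressor locus, had 3.05, 1.35, 2.54, 0.47, 1.09 and 2.86 FPKM in the DEX libraries of leukemias 1 to 6 and 4.41, 0.93, 3.20, 0.53, 0.71 and 1.95 FPKM in the VEH libraries, with a difference of 0.04 ± 0.13 (limma adjusted p = 0.865). It differed between leukemias (limma adjusted p = 0.0023), with leukemias 1, 3 and 6 above leukemias 2, 4 and 5 in both groups. Of 11 germline genes that DNA methylation holds silent, 9 were under 1 FPKM in every library, to be read against the same share of all rows. The exceptions were Sycp1 and Brdt, and Brdt, a germline bromodomain gene, reached 11.6 FPKM in the DEX and 11.02 FPKM in the VEH library of leukemia 3.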

How the data were processed

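Total RNA libraries of marrow cells were made with a stranded kit and sequenced as paired reads, per the labels' protocols. The values are FPKM as the authors deposited them. Per the submitters' processing notes, the build was mm10, and RSEM, edgeR and Bowtie2 (version 2) were among the tools, with no roles given. The annotation and any filter are not given in the sources used here.

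Genes were matched to GENCODE M21 on GRCm38 by identifier (37693 of 38339 rows). Depth was estimated from the FPKM steps of 1516 sparse genes, since the table holds no counts, and no counting interval is given. Values were analysed as log2(FPKM + 1) without further scaling, for genes of at least 1 FPKM in at least 6 of 12 libraries (12358). limma 3.58.1 in R 4.3.3 (lmFit, eBayes with trend, two-sided, 5 residual and 3.99 prior degrees of freedom) was fitted with leukemia as a block, and p-values were adjusted by Benjamini-Hochberg over all tested genes, with a threshold of 0.05. Levels between leukemias were compared with an F test on the 5 leukemia terms. Ratios were tested with exact sign flips. A trial of the fit used simulated data drawn from its own model with independent noise, which cannot test the scaling of libraries. The pairing comes from the leukemia code in the titles. Deviations from group means correlated at 0.551 to 0.817 within a leukemia and at -0.34 to 0.205 between leukemias.

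Named genes were the regulators, up to 4 genes past the threshold with the smallest p in each list, 12 genes chosen by name and the 3 genes most like each regulator, of which some are given. Uty, the single Hox genes, Meis1, Brdt, Sycp1, Mcm2, Mcm7, Cdt1 and the T-lineage markers past the test were named after their values were seen. The regulators and lists were chosen with earlier results of these data known. The 17 alternative settings of the fit cover pseudocount, filter, scaling, block, variance model and the leaving out of each leukemia.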

Additional observations from a re-analysis of the deposited data

Results flagged for a closer look

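Of 51 sets of 6 values checked, 4 held a leukemia far from the other five. Chance gives such a mark in about 5% of sets. Uty gave a mark in DEX and in VEH, from the same leukemia, and was named after its values were seen. The count is therefore not set against that share.

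Ezh1, a catalytic subunit of PRC2, differed by -0.59 between DEX and VEH in leukemia 2, against -0.16 to 0.07 in the other leukemias. The gap to the nearest leukemia was 0.649 of the whole range. Leukemia 2 also gave the lowest single differences of Ezh2 and Suz12 and, outside PRC2, of Phf6, Tet2 and Uhrf1. Its pair of libraries differed widely beyond these genes: the median difference of all tested genes was -0.12 in leukemia 2 and -0.09 to -0.01 in the others, and its erythroid and B-lineage markers differed by -2.82 and -1.74 on average. The part of these in the Ezh1 value was not tested.

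Uty, the Y-linked paralog of Kdm6a, stood at 23.3 FPKM in the DEX library of leukemia 2, against 0.13 to 2.30 FPKM in the other DEX libraries. In the VEH libraries it stood at 27.6 FPKM in leukemia 2, against 0.34 to 2.00 FPKM in the others. The gaps were 0.906 of the range in DEX and 0.939 in VEH.

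The log2 ratio of Uhrf1 to Dnmt1 was higher with DEX in leukemia 6, by 0.25, and lower in the other leukemias, at -0.34 to -0.17. The gap was 0.699 of the range. In leukemia 6 Uhrf1 had 207 FPKM in the DEX and 174 FPKM in the VEH library, and Dnmt1 had 90.7 FPKM in the DEX and 90.2 FPKM in the VEH library.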

How the results depend on the processing

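The 2 calls among the regulators were Dnmt3a and Phf6. Both were lost with no filter, under median-of-ratios scaling, under quantile normalization and with no replicate block (0 each). Rescaling to TPM gave 4, adding Uhrf1 and Dnmt3b. Leaving out 1 leukemia gave 0 to 2 and never kept both calls. The 2 without leukemia 6 were Dnmt3a and Uhrf1, and Phf6 was not past the threshold there (limma adjusted p = 0.0550). Over all tested genes, 528 were higher and 1147 lower. These counts were 181 and 370 with no filter, 261 and 1889 after rescaling to TPM, 35 and 46 with no replicate block, and 234 to 537 and 420 to 1035 without 1 leukemia. Of the genes of the 7 lists, 21 were lower and 1 higher. Lower were 3 with no filter, 0 with no replicate block and 4 to 20 without 1 leukemia, and higher were 0 after rescaling to TPM, 0 with no replicate block and 0 to 3 without 1 leukemia. The count of genes that differed between leukemias, 6321, was 4666 to 6682 over its alternatives. The estimate changed sign for Kdm6a after rescaling to TPM (-0.092) and for Ezh2 without leukemia 2 (range without 1 leukemia -0.24 to 0.039). The ratio of Ezh1 to Ezh2 ranged from -0.12 to 0.054 and that of Eed to Suz12 from -0.017 to 0.12 without 1 leukemia. With no filter more genes were tested, and without 1 leukemia fewer libraries entered. The cause of none of the changes was tested. Each arm of a leukemia is 1 recipient, so mouse and treatment cannot be told apart within a leukemia. Depth limits Tet2 most.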

Other observations

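Some other genes of these pathways stood low or high in particular leukemias. Uhrf2, the paralog of Uhrf1, had 1.34 FPKM in the DEX and 0.75 FPKM in the VEH library of leukemia 4. In leukemia 6 Uhrf2 had 0.44 FPKM in the DEX and 1.06 FPKM in the VEH library, and in the other leukemias it lay between 9.80 and 50.2 FPKM over both groups. Scmh1, a PRC1 gene, had 0.24 FPKM in the DEX and 0.31 FPKM in the VEH library of leukemia 6. Epop, a PRC2 partner, was low throughout, at most 2.00 FPKM in DEX and 3.51 FPKM in VEH libraries. It had 0.11 FPKM in the DEX and 0.27 FPKM in the VEH library of leukemia 2, and 0.81 and 0.78 FPKM in leukemia 6. Idh2, a mitochondrial isocitrate dehydrogenase, had 106 FPKM in the DEX and 106.3 FPKM in the VEH library of leukemia 6, above its other libraries. These genes were picked after their values were seen, and nothing was tested on them here beyond the fit.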
